A study of Homo sapiens with 3 samples.

Results

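The genes described here lie on the long arm of human chromosome 12, in bands 12q12 to 12q13, from CPNE8 on the centromere side to MCRS1 on the telomere side. The set was defined as 54 named genes of this interval with all their array probe sets, and 53 of them, with 128 probe sets, were measured among the 19775 genes and 54613 probe sets of the series. IRAK4, the remaining one, was not analysed here. The members were selected on their log2 differences between the siRNA and scrambled arrays, and genes of the interval that had been used elsewhere were left out. The members' differences are therefore given as a description, no test of a shared shift was made, and nothing is drawn from their direction.

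The cells were SK-Mel-28, a melanoma line of human origin, profiled on 3 Affymetrix U133 Plus 2.0 arrays of 1 colour each. For the arrays labelled B1 and B2, the line stably carried the plasmid pSilencer 3.1-H1 neo with a hairpin siRNA directed at melanotransferrin (MTf, gene symbol MELTF), and for the other array the same plasmid with a scrambled hairpin. The H1 promoter of the vector drives the hairpin, so all 3 arrays share the vector. Whether B1 and B2 are separate clones, cultures or preparations is not stated, so the spread between them may be technical.

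Genes that follow one another along a chromosome need not work together. The interval holds a cluster of alpha-tubulin genes (TUBA1A, TUBA1B, TUBA1C), whose products pair with beta-tubulin to form microtubules. Its other genes encode proteins as unlike as a familial Parkinson's disease kinase (LRRK2), the vitamin D receptor (VDR), the muscle form of phosphofructokinase (PFKM) and subunits of chromatin-modifying complexes (ARID2, KMT2D, KANSL2, MCRS1).

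Most of the 53 members had higher signals in the siRNA cells than in the scrambled cells. The median member was 0.70 higher on the log2 scale, a 1.63-fold difference, with medians of 0.63 on array B1 and 0.73 on array B2. With every signal raised to at least 97.2, the brightest signal of the control probe sets for a bacterial gene, the members' median was 0.63. Over all 19775 genes the median was 0.075. The difference exceeded 0 on both siRNA arrays for 44 members, beside 42.9% of all genes, and lay below 0 on both for 5, beside 31.3%. The other 4 had 1 siRNA array on each side of the scrambled array. Counts of genes at least 2-fold higher or lower were made on the log2 scale. A constant is added to each signal there, so the fold is smaller than the ratio of the signals. By this measure 11 members were at least 2-fold higher on both siRNA arrays (CPNE8, KIF21A, SLC2A13, LRRK2, CNTN1, VDR, ASB8, CACNB3, FKBP11, LMBR1L and TUBA1A), beside 3.92% of all genes. RHEBL1, for example, read 706.2 and 845.9 against 350.3 on the scrambled array, more than 2-fold higher in signal, and was not counted. One member, PCED1B, was at least 2-fold lower on both, beside 2.36%. Since this contrast chose the members, these shares carry no weight of their own.

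Signals are given as deposited, in the order array B1, array B2, then the scrambled array. Differences are siRNA minus scrambled on the scale log2(signal + 47.4), which understates the change of dim genes, and ± is the SD over the 2 siRNA arrays. Both siRNA arrays were set against the same lone scrambled array, whose own spread is not known and is not part of the SD. Where a gene has several probe sets, the one brightest on average stands for it. Control probe sets for a bacterial gene read up to 97.2, and where the dimmer side lay below that level no difference is printed. In such bulk RNA, fewer expressing cells and less RNA per cell cannot be told apart. Levels are not compared between genes, because each probe set has its own brightness.

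**Figure D1:**
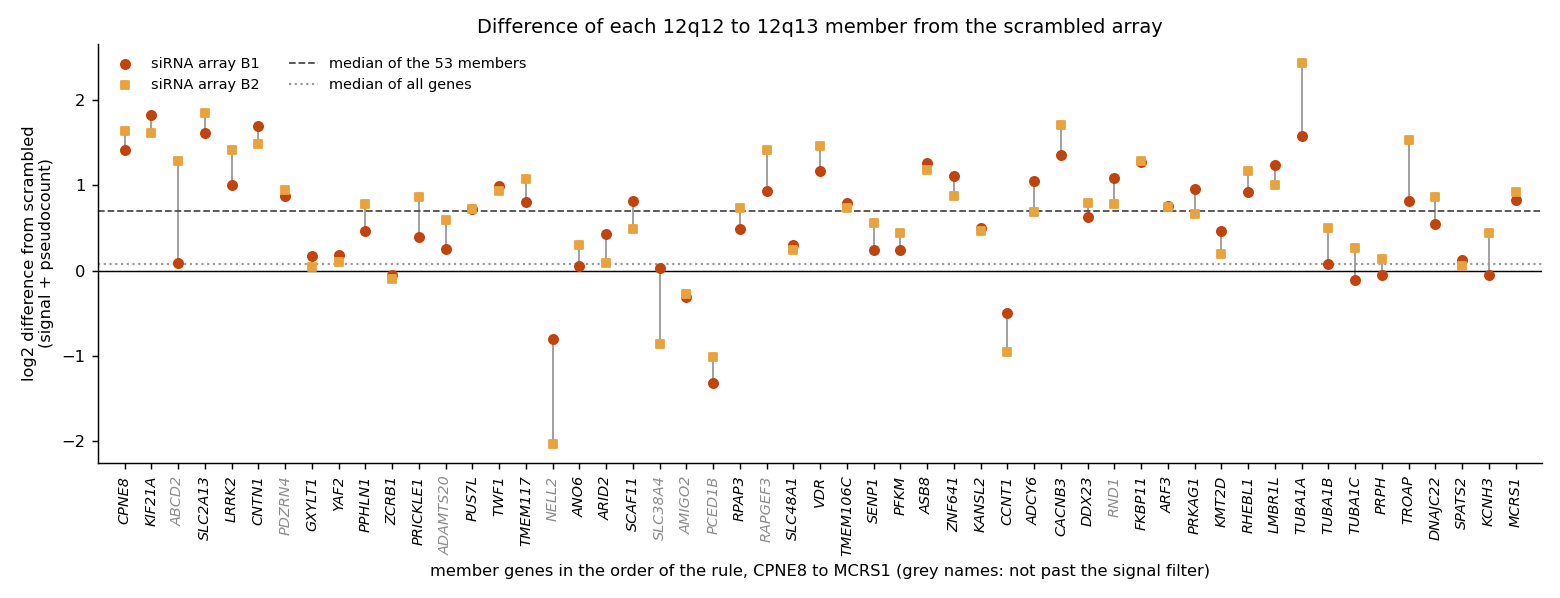
Log2 difference from the scrambled array (vertical axis, on the log2(signal + 47.4) scale) for the 53 measured members in the order of the rule. Circles stand for siRNA array B1, squares for siRNA array B2, the dashed line for the members' median of 0.70 and the dotted line for the median of all genes at 0.075. TUBA1A, towards the right, has the highest mean, and NELL2 and PCED1B the lowest.

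Promoter windows of 300 bases around the gene's start, from RefSeq (build GRCh38.p14), are shown for the first 2 genes of the interval, which were among the members at least 2-fold higher, and for the 3 alpha-tubulin genes, which differed among themselves. They run 5′ to 3′ on the gene's own strand: CPNE8 at chr12:38905542-38905841, KIF21A at chr12:39443071-39443370, TUBA1A at chr12:49189031-49189330 and TUBA1B at chr12:49131346-49131645 on the minus strand, and TUBA1C at chr12:49264832-49265131 on the plus strand. Of the 3 windows the table holds for TUBA1C, the one richest in CG pairs is shown. Capitals mark matches on either strand to the CAAT box CCAAT, to the GC box GGGCGG, to the E-box CACGTG or to the TATA-like string TATATA, and neighbouring matches to GGGCGG share 2 bases in the KIF21A window and 2 in the TUBA1B window.
CPNE8: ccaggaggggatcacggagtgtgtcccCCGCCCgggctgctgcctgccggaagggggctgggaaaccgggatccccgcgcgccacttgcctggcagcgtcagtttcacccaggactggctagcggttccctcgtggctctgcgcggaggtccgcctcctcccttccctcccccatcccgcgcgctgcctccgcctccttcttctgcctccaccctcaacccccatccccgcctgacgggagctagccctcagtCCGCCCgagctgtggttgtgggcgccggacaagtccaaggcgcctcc
KIF21A: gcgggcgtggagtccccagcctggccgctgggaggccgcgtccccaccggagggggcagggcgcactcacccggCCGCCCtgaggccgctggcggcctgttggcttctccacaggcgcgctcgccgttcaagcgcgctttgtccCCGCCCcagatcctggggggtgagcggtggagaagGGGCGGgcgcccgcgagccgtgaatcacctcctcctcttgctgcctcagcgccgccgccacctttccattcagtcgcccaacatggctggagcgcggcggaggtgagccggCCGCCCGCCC
TUBA1A: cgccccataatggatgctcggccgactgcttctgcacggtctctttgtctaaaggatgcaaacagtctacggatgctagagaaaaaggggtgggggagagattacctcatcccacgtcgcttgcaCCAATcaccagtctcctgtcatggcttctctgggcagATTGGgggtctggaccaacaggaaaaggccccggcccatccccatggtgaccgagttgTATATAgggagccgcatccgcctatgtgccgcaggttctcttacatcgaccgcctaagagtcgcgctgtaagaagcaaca
TUBA1B: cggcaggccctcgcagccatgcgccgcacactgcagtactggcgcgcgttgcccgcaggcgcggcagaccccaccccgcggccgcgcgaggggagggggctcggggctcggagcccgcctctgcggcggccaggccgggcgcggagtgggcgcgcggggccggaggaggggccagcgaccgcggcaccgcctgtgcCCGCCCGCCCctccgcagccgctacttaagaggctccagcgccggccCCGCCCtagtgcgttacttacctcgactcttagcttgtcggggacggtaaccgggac
TUBA1C: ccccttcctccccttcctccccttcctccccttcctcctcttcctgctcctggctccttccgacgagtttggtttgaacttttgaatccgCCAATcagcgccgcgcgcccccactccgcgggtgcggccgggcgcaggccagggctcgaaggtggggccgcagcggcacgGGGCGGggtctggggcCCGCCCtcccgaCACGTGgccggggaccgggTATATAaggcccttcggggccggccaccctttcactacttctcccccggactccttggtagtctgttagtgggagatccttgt
The KIF21A window held 5 matches to GGGCGG and the CPNE8 window 2. TUBA1B had 3 such matches and 43 CG pairs, whereas TUBA1A had none and 16 CG pairs, with 2 matches to CCAAT and 1 to TATATA. TUBA1C had 2 matches to GGGCGG and 1 match to each of the other strings. Windows were matched by symbol for 43 of the 53 members, each gene by its window richest in CG pairs. GGGCGG was found in 79.1% of these genes and in 47.0% of the 27305 genes of the table, CCAAT in 27.9% against 35.0%, CACGTG in 14.0% against 7.54% and TATATA in 6.98% against 4.07%. The median window held 27 CG pairs among the members and 16 among all genes of the table. The table mixes genes of every kind, and a match describes the letters and is no measured binding site.

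The 7 cytoskeletal members had a median difference of 0.97, with 5 above 0 on both siRNA arrays. KIF21A, a kinesin that restrains microtubule growth at the cell cortex, read 3347 and 2901 on siRNA arrays B1 and B2, against 912.6 on the scrambled array (1.72 ± 0.14). TUBA1A read 15335 and 27859 against 5110 on the scrambled array (2.01 ± 0.61), the highest mean difference of any member. Both siRNA arrays were above the scrambled array for each of these genes, but for TUBA1A they also lay far apart, with B2 the higher. Array B2 was also the higher in its neighbours, at smaller differences: TUBA1B read 40133 and 54023 against 38021 on the scrambled array (0.29 ± 0.30), and TUBA1C 34276.5 and 44622 against 36950 (0.08 ± 0.27). For TUBA1C the scrambled array lay between the siRNA arrays. The 3 genes encode near-identical proteins. TUBA1A had 1 probe set with the suffix _s_at, which marks probes shared by several transcripts, while 5 of the 6 TUBA1B probe sets and both for TUBA1C end in _x_at, which marks probes that may bind other sequences, so how the signal divides among the 3 genes is uncertain.

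TWF1, the actin-monomer-binding protein twinfilin, read 13545 and 13006 on the siRNA arrays, against 6770 on the scrambled array (0.97 ± 0.041). Its second brightest probe set gave 1.03. TROAP, a spindle-associated protein also called tastin, read 1228 and 2048 against 678.4 on the scrambled array (1.17 ± 0.51), but its other probe set read 393.5 and 835.8 against 525.4 and did not separate the groups. PRPH, the neuronal intermediate filament protein peripherin, read 398.4 and 460.1 against 414.6 on the scrambled array, 1 siRNA array on each side.

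**Figure D2:**
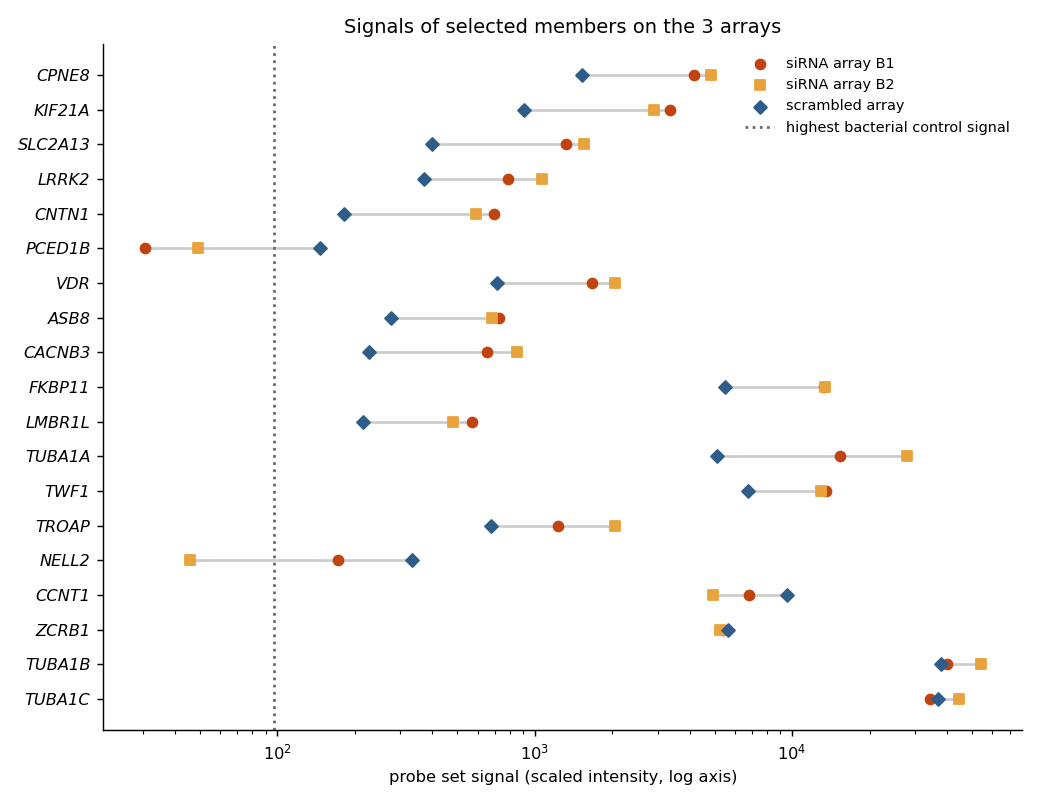
Probe set signals (horizontal log axis, scaled intensity) of 19 members. They are those at least 2-fold higher or lower on both siRNA arrays by their log2 differences, then 7 further members as examples. Circles are siRNA array B1, squares siRNA array B2 and diamonds the scrambled array. The dotted line is 97.2, the highest signal of the control probe sets for the bacterial gene used here. The diamonds lie left of both siRNA symbols from CPNE8 to TROAP except at PCED1B, and right of both at PCED1B, NELL2, CCNT1 and ZCRB1.

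All 9 measured signalling members were above 0 on both siRNA arrays, with a median of 0.94 and a mean difference larger than the gap between the siRNA arrays in each, beside 32.2% of all genes. LRRK2, a kinase with a GTPase domain, read 788.4 and 1067 on the siRNA arrays, against 370.3 on the scrambled array (1.21 ± 0.29). ASB8, a substrate-recognition subunit of ubiquitin ligases, read 726.9 and 685.5 against 276.1 on the scrambled array (1.22 ± 0.056). Its other probe set gave 0.12, at 325.0 and 339.2 against 302.0 on the scrambled array, so the 2 ASB8 probe sets differed by more than 1 on the log2 scale.

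The small GTPases and cyclic AMP genes among them covered a range of sizes. RHEBL1, a relative of the growth regulator Rheb, read 706.2 and 845.9 against 350.3 on the scrambled array (1.04 ± 0.17). ARF3, a GTPase of the Golgi, read 8292.5 and 8234 against 4872 on the scrambled array (0.76 ± 0.0072), although another of its 3 probe sets gave -0.045. ADCY6, an adenylyl cyclase that makes cyclic AMP, read 1370 and 1048 against 634.8 on the scrambled array (0.87 ± 0.26). RAPGEF3, the exchange factor Epac1 that cyclic AMP activates, read 102.2 and 161.7 against 31.1, or at least 1.32-fold higher, and its other probe set was below the bacterial level on every array. PRKAG1, a regulatory subunit of the energy sensor AMPK, read 5079 and 4131 against 2593 on the scrambled array (0.81 ± 0.21). PRICKLE1, a planar cell polarity protein, read 401.4 and 575.1 against 295.0 (0.63 ± 0.33), with 0.85 and 0.13 in its next probe sets.

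Among the 10 transporters, channels and other membrane proteins, 8 were above 0 on both siRNA arrays and the median was 0.72. SLC2A13, a cotransporter of protons and myo-inositol, read 1323 and 1558 on the siRNA arrays, against 399.4 on the scrambled array (1.73 ± 0.16), with 0.62 in its next probe set, while the 3 others had scrambled signals below the bacterial level. CACNB3, a beta subunit of voltage-gated calcium channels, read 654.7 and 850.9 against 227.2 on the scrambled array (1.53 ± 0.25), and 0.85 in its other probe set. LMBR1L, a lipocalin receptor, read 572.1 and 479.7 against 214.4 on the scrambled array (1.13 ± 0.16). In these 3 genes each siRNA signal was more than 2-fold above the scrambled signal in the probe set that represents the gene.

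TMEM117 followed at 1512 and 1828 against 845.4 on the scrambled array (0.94 ± 0.19), and TMEM106C at 6378 and 6120.5 against 3660 (0.76 ± 0.042). The haem transporter SLC48A1 read 622.5 and 596.4 against 496.1 on the scrambled array (0.27 ± 0.041), and its next probe set gave 0.85. ANO6, a phospholipid scramblase, read 5697 and 6727 against 5472 (0.18 ± 0.17), and so differed by less than the gap between its siRNA arrays. KCNH3, a voltage-gated potassium channel, read 259.4 and 386.3 against 270.7 on the scrambled array, with 1 siRNA array on each side. The last pair stayed below the bacterial level on every array, the peroxisomal transporter ABCD2 at 8.2 and 80.1 against 5.0, and the amino acid transporter SLC38A4 at 56.7 and 8.9 against 54.4.

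The 4 adhesion and secreted proteins were the only role group without a majority on 1 side, with 2 above and 2 below 0 on both siRNA arrays. CNTN1, an immunoglobulin-type adhesion molecule known from neurons, read 694.1 and 591.6 on the siRNA arrays, against 181.6 on the scrambled array (1.59 ± 0.15). Its second brightest probe set gave 1.55. NELL2, a secreted glycoprotein, ran the other way at 171.6 and 45.7 against 333.2, or at least 2.58-fold lower in the siRNA cells, and its siRNA arrays were more than 2-fold apart. AMIGO2, a leucine-rich adhesion protein, read 62.0 and 64.9 against 88.2 on the scrambled array, and ADAMTS20, a secreted metalloprotease needed for melanoblast survival in mice, read 62.3 and 90.4 against 44.2. Both are below the bacterial level on all 3 arrays, and the other ADAMTS20 probe set ran the opposite way, at 2.7 and 33.7 against 70.4.

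The 10 chromatin and transcription genes had a median of 0.44, with 9 above 0 on both siRNA arrays and 1, CCNT1, below. VDR, a ligand-activated transcription factor, read 1662 and 2053 on the siRNA arrays, against 711.9 on the scrambled array (1.32 ± 0.21). Its other probe sets gave 1.12, 0.15 and, with a scrambled signal below the bacterial level, 436.5 and 352.0 against 43.1. All 4 VDR probe sets were higher on both siRNA arrays, by unequal amounts. CCNT1, the cyclin subunit of the elongation factor P-TEFb, read 6796 and 4937 against 9585 on the scrambled array (-0.72 ± 0.32). Its dimmer probe set placed the scrambled signal between the siRNA signals, at 1039 and 547.0 against 896.7.

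Subunits of chromatin complexes lay between these. MCRS1, the last gene of the interval and a subunit of the NSL and INO80 complexes, read 1896 and 2032 on the siRNA arrays, against 1047 on the scrambled array (0.88 ± 0.069), and KANSL2, another NSL subunit, 1594 and 1561 against 1117 (0.48 ± 0.02). PPHLN1, of the silencing complex HUSH, read 7561 and 9470 against 5464 (0.63 ± 0.23), but its next 3 probe sets gave 0.19, -0.16 and 0.16. ARID2, a subunit of the PBAF remodeller, read 1328 and 1037 against 969.7 (0.26 ± 0.24) in its brightest probe set, and YAF2, of Polycomb complexes, 1280.5 and 1204.5 against 1119 (0.14 ± 0.06). The other ARID2 probe sets gave 0.74, 0.65 and 0.27. KMT2D, a histone H3 lysine methyltransferase, read 2947 and 2433 against 2125 on the scrambled array (0.33 ± 0.19). It had 6 probe sets, of which the 3 dimmest were below the bacterial level on at least 1 array and disagreed in direction. The SUMO protease SENP1 read 673.0 and 855.5 against 562.9 on the scrambled array (0.40 ± 0.23). ZNF641, a zinc finger protein, read 1401 and 1183 against 625.1 (0.99 ± 0.17), with -0.011 in 1 of its 4 probe sets.

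Of the 6 RNA-related members, 5 were above 0 on both siRNA arrays, with a median of 0.63. PUS7L, related to pseudouridine synthases, read 767.8 and 770.3 on the siRNA arrays, against 446.9 on the scrambled array (0.72 ± 0.0031). DDX23, a helicase of the spliceosome, read 2336 and 2623 against 1498 on the scrambled array (0.71 ± 0.12), and RPAP3, which helps HSP90 assemble RNA polymerase II, 2649 and 3138.5 against 1869 (0.61 ± 0.17), with 0.14 in its dimmer probe set. In the probe sets that represent these genes, the siRNA arrays lay closer to each other than to the scrambled array. SCAF11, a splicing-associated protein, read 4810 and 3815 against 2700.5 on the scrambled array (0.66 ± 0.23), but 1 of its 7 probe sets read 2703 and 2417 against 4333 (-0.75). The RNA-binding protein SPATS2 read 2107 and 2000 against 1921 (0.09 ± 0.052) in its brightest probe set, and 0.47, 0.49 and 0.39 in its 3 others. ZCRB1, a protein of the minor spliceosome, read 5405.5 and 5268 against 5619 on the scrambled array (-0.07 ± 0.026) and was slightly lower on both siRNA arrays, with -0.30 in its other probe set.

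The 7 members with metabolic, folding or other roles had a median of 0.70, with 6 above 0 on both siRNA arrays. CPNE8, a copine that binds phospholipids in a calcium-dependent way and the first gene of the interval, read 4159 and 4844 on the siRNA arrays, against 1529 on the scrambled array (1.52 ± 0.15). Its 2 other probe sets gave 1.36 and 0.96. FKBP11, a prolyl isomerase of the secretory pathway, read 13302 and 13442.5 against 5488 on the scrambled array (1.28 ± 0.011), and its other probe sets 1.08 and 0.89. All 3 probe sets of each of these 2 genes were higher on both siRNA arrays.

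DNAJC22, a J-domain protein, read 546.0 and 694.1 against 360.0 on the scrambled array (0.70 ± 0.23), and the glycolytic enzyme PFKM 11917 and 13787 against 10095 (0.34 ± 0.15). GXYLT1, a xylosyltransferase that extends sugars on Notch, read 2316 and 2103 against 2042 (0.11 ± 0.097), with 0.53 in its other probe set. PCED1B read 30.6 and 49.2 on the siRNA arrays, against 146.7 on the scrambled array, or at least 1.51-fold lower, so its count as 2-fold lower rests on siRNA signals below the bacterial level. PDZRN4 was below that level on all 3 arrays, at 44.1 and 48.4 against 2.5 on the scrambled array.

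The differences were not even along the interval. The 6 measured genes from CPNE8 to CNTN1 had a median of 1.56, and 5 of them were at least 2-fold higher on both siRNA arrays, ABCD2 being the exception. The next 18, from PDZRN4 to RPAP3, had a median of 0.34 with 0 at least 2-fold higher and 1 lower. The 29 from RAPGEF3 to MCRS1 had a median of 0.76 with 6 at least 2-fold higher. By the same measure 3.92% of all genes were at least 2-fold higher and 2.36% lower. The 2-fold counts of these stretches were made on the log2 scale. The stretches were drawn after the values were seen, from members selected on this contrast, so their counts carry no weight. Just inside the ends lay CPNE8 (1.52) and MCRS1 (0.88). On the centromere side, the nearest measured genes before CPNE8 in gene order lie across the centromere, on the short arm. They were ALG10 at 540.0 and 456.0 against 335.0 on the scrambled array (0.51) and PKP2 at 58.3 and 41.6 against 133.2. Further out on that side YARS2, DNM1L, FGD4 and BICD1 gave -0.27, 0.14, 0.14 and -1.67. On the telomere side FAM186B was below the bacterial level on all arrays, and PRPF40B read 579.0 and 629.9 against 393.0 (0.56). Beyond it FMNL3, TMBIM6 and NCKAP5L gave 0.51, 0.90 and 0.65, each higher on both siRNA arrays. BCDIN3D-AS1 came next at 257.6 and 271.8 against 22.7, or at least 2.72-fold higher. Higher signals thus went on for some genes past MCRS1. The next measured gene, BCDIN3D, gave -0.82, and the 54 genes on that side had a median of 0.089, beside 0.075 over all genes.

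The 29 measured non-members between CPNE8 and MCRS1 had a median of 0.19. On both siRNA arrays 12 of them were above 0 (41.4%, beside 42.9% of all genes) and 9 below 0, beside 31.3%. By the log2 differences, 1 was at least 2-fold higher on both arrays (3.45%, beside 3.92%) and 1 at least 2-fold lower (3.45%, beside 2.36%). The shares above 0 and 2-fold higher were near those of all genes. The one at least 2-fold lower was SLC38A1, a glutamine transporter, at 1552 and 1570 on the siRNA arrays against 6321 on the scrambled array (-1.99). Most of these genes were dim: 7 passed the filter on low signals (a mean log2 value above the median of all probe sets, 7.74), with a median of 0.24, against 44 of the members, with a median of 0.72. Of those 7, 4 were above 0 and 3 below 0 on both siRNA arrays. The filter takes the mean over all 3 arrays, 2 of them siRNA, and so favours genes that are higher there. WNT10B and SLC38A2-AS1 passed although their scrambled values alone lay below 7.74. Nothing is drawn from this median or split. The highest of the 29 was CCDC184, at 149.0 and 155.4 against 44.4, or at least 1.57-fold higher. It was followed by WNT10B at 183.5 and 331.7 against 98.9 (1.02), SLC38A2-AS1 at 253.0 and 352.6 against 127.4 (0.99) and LINC02450 at 443.0 and 316.4 against 172.8 (0.94). Lowest after SLC38A1 were WNT1, at 59.1 and 7.3 against 96.8 and below the bacterial level throughout, and PLEKHA8P1, at 510.5 and 445.0 against 790.2 (-0.68). Together the 82 measured genes of the interval had a median of 0.45, and the 51 past the filter 0.71. Since 44 of those 51 are members selected on this contrast, their median says little about the non-members.

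Outside the interval, the 54 measured genes ranked before CPNE8 had a median of -0.0056 and the 54 next to MCRS1 a median of 0.089. Flanks were taken by gene rank, and the one before CPNE8 lies on the short arm, so its median describes no local edge. The 953 other genes of chromosome 12 had a median of 0.22, with 517 above 0 on both siRNA arrays (54.2%). Past the filter these medians were -0.060 on the centromere side, 0.10 on the telomere side and 0.28 over chromosome 12 outside the interval. A running median over 15 bright genes peaked at 0.94 around YAF2 inside the interval, where its lowest value was 0.14, around CPNE8. CPNE8 is the first gene of the interval, so the window centred on it also takes genes from outside. Most genes under the peak around YAF2 are members selected on this contrast, so the height of that peak carries no weight of its own. Outside the interval, on the same chromosome, the running median reached 0.85 around DRC10, which is also above the members' median.

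**Figure D3:**
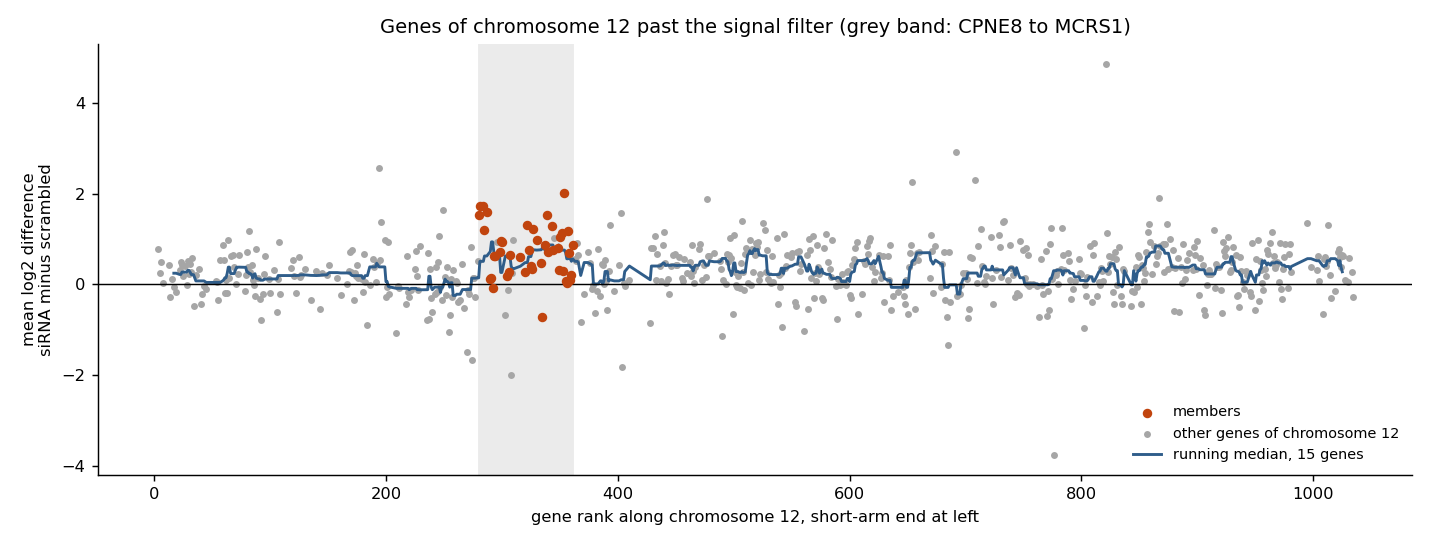
Mean log2 difference, siRNA minus scrambled (vertical axis), of the chromosome 12 genes past the filter on low signals, by gene rank from the short-arm end (horizontal axis). The grey band spans CPNE8 to MCRS1, large points are the members, small points other genes, and the line is the running median over 15 genes. The line rises to 0.94 in the band and to 0.85 near the long-arm end.

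**Figure D4:**
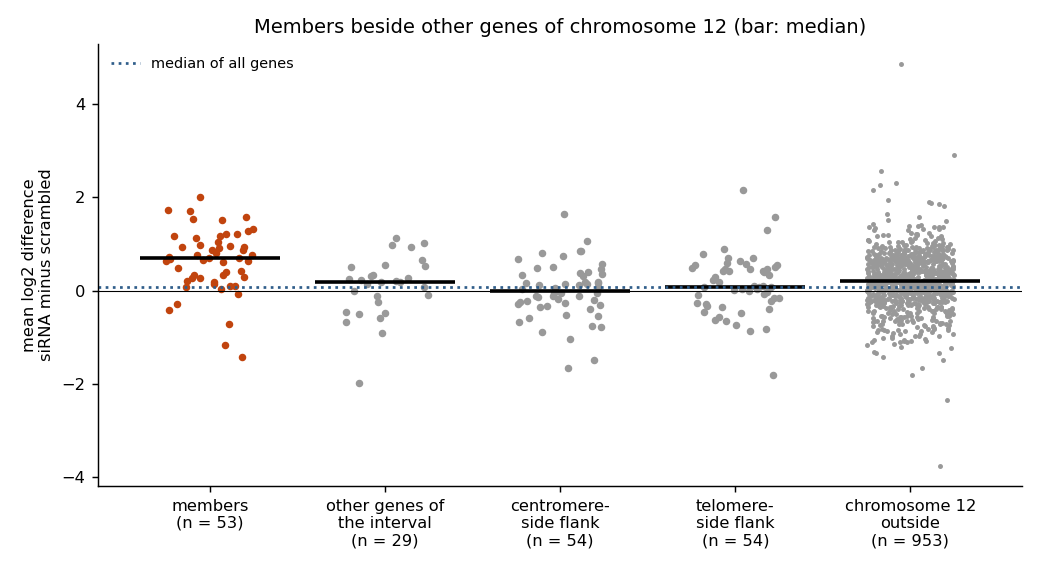
Mean log2 difference, siRNA minus scrambled (vertical axis), of the members and of 4 other sets of chromosome 12 genes, 1 point a gene with black bars for medians. The medians are 0.70 for the 53 members, 0.19 for 29 other genes of the interval, -0.0056 and 0.089 for the 54 genes on either side and 0.22 for the 953 genes outside.

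Most members with several probe sets gave 1 direction. Of the 128 member probe sets, 99 were above 0 on both siRNA arrays and 9 below 0 on both. Among the 36 members with several probe sets, all were above 0 by their mean in 25, all below in 2, and 9 had probe sets on both sides. In 9 members (SLC2A13, ADAMTS20, SCAF11, RAPGEF3, VDR, ASB8, ZNF641, KMT2D and TROAP) the probe sets lay at least 1 apart on the log2 scale, and the median range within a member was 0.54. Probe sets of 1 gene share the same RNA and are not replicates. The same counts over all probe sets were not made. Because the members were chosen on this contrast, these counts carry no weight of their own.

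**Figure D5:**
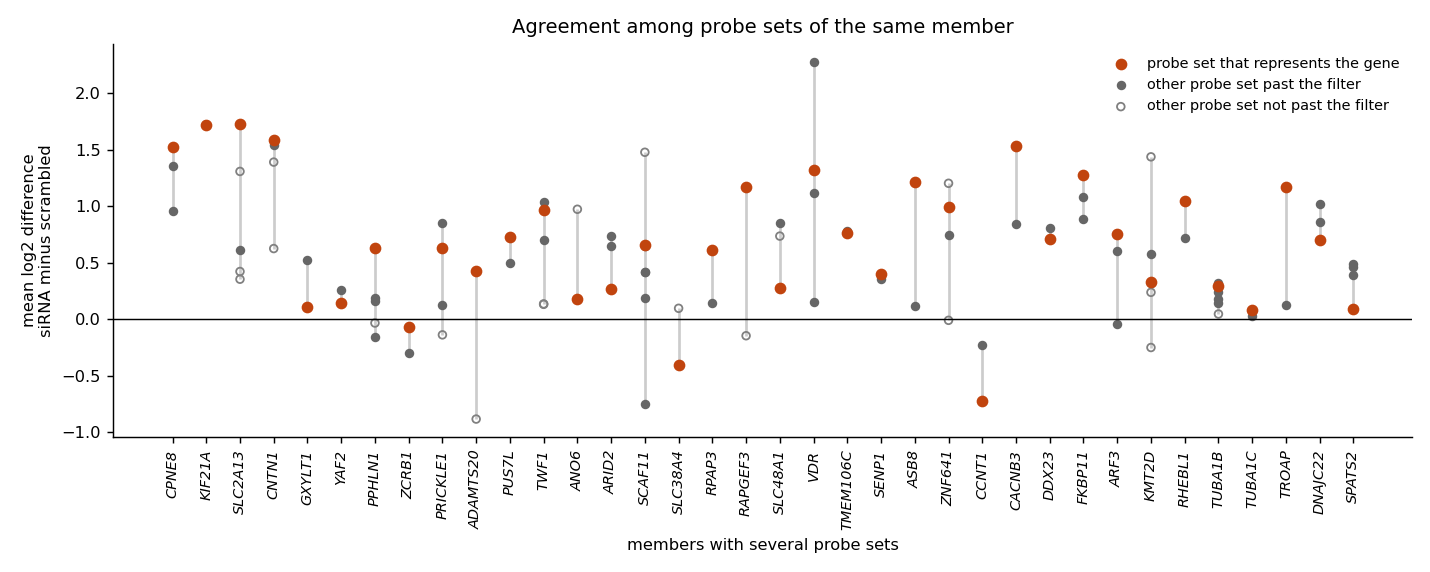
Mean log2 difference, siRNA minus scrambled (vertical axis), of every probe set of the 36 members with several probe sets. Large points represent the gene, filled small points are other probe sets past the filter on low signals and open points those not past it. The 9 members with probe sets at least 1 apart, SCAF11 and VDR among them, show as the longest lines.

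The 2 siRNA arrays agreed about as closely in the members as elsewhere. The median absolute gap between B1 and B2 was 0.25 in the members and 0.27 over all genes. Only ABCD2 and NELL2 were 2-fold or more apart on the log2 scale. Array B1 was the higher in 23 members and array B2 in 30. The mean difference from the scrambled array exceeded this gap upward in 39 members, beside 32.2% of all genes, and downward in 5, beside 23.5%. For the members, the limma calls that follow rest on the same values that selected them and are a description only. A limma fit over all 27306 probe sets past the filter called 571 at an adjusted p under 0.05, 324 of them higher (1.19%) and 247 lower (0.905%). Of the 97 member probe sets past the filter, 6 were among those called, all higher, in KIF21A, FKBP11, CPNE8, SLC2A13, TUBA1A and VDR, beside 2.09% of all tested in either direction. For VDR the called probe set had a scrambled signal below the bacterial level, and the one that represents the gene was not called. That called probe set passed the filter only through its siRNA signals. Because the filter takes the mean over all arrays, it favours probe sets that are higher on the 2 siRNA arrays. With no filter, or without the trend in the model, limma called 1 probe set in the whole table and 0 of the members (7286 and 4790 had an unadjusted p under 0.05).

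MELTF itself was measured by 4 probe sets that ran in both directions, the brightest at 18968 and 18974 on the siRNA arrays against 32608 on the scrambled array and the next at 10567 and 11199 against 8284, so the probe sets of the targeted gene disagreed in direction. Median signals were 174.3 and 199.5 on the siRNA arrays and 160.6 on the scrambled array, and their number, 2 against 1, limits every value. Ribosomal RNA control probe sets were 3.76-fold brighter on array B1 than on the scrambled array and 1.06-fold on array B2. The part of that signal in the members' differences was not tested, and the members' median was 0.63 on B1 and 0.73 on B2. The 6 measured melanocyte markers, of 7 listed, summed to 237039 and 253261 on the siRNA arrays, against 236324 on the scrambled array, and none was below the bacterial level. Within that sum, and singled out after the values were seen, TYR read 35193 and 37555 against 19988 on the scrambled array and MITF 42992 and 34223 against 52684. Epithelial markers summed to 439.5 and 641.0 against 706.4 (6 of 6 measured; EPCAM, CDH1, KRT14 and KRT19 were below that level on all arrays). Leukocyte markers summed to 580.4 and 556.6 against 1327 (4 of 5; PTPRC and CD14 below it), mostly from LCP1 at 477.8 and 384.7 against 1130. Fibroblast markers summed to 815.8 and 1042 against 1158 (5 of 5; COL3A1 and PDGFRB below it) and endothelial markers to 409.2 and 703.5 against 489.1 (4 of 4; CDH5 below it). The part of these markers in the members' differences was not tested.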

How the data were processed

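The authors deposited 1 linear intensity per probe set and array, computed with GCOS 1.3 per the submitters' processing notes. Trimmed means of 1000.12, 1000.13 and 1000.14 (B1, B2, scrambled) showed that the arrays had been scaled alike. No genome build is given in the sources used here. Without 62 controls there were 54613 probe sets, of which 41091 had a single gene in the platform annotation, 1801 had several and 11721 had no gene. Only those with 1 gene were used to represent genes. Symbols and gene order came from the RefSeq gene table (GRCh38.p14), which lacked the Entrez identifiers of 54 probe sets, 0 of them of members. Value columns of other samples numbered 0.

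Analyses used log2(signal + 47.4), 47.4 being the 25th percentile of all signals. Folds written "at least" compare geometric means of signals raised to 97.2 where lower, and that level was picked with the values in view. Members were described without a filter on low signals. limma 3.58.1 in R 4.3.3 (lmFit, eBayes with trend, Benjamini-Hochberg at 0.05, two-sided) was fitted over the probe sets past the filter, with 1 residual degree of freedom. It assumes that the lone scrambled array varies like the siRNA arrays. The members, role groups and marker lists were chosen with earlier results of these data known. Every measured member is described with its values except 1, whose own values are not reported here and which stays in the counts and medians. Values of non-members are given for the nearest neighbours on either side and the extremes inside the interval. Alternatives covered the pseudocount, scaling, choice of probe set, filter, model of the spread and each siRNA array left out.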

Additional observations from a re-analysis of the deposited data

Results flagged for a closer look

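Ribosomal RNA control probe sets, which are no part of the comparison, were brighter on 1 siRNA array. Their median ratio over the scrambled array was 3.76 on array B1 (6 probe sets) and 1.06 on array B2.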

How the results depend on the processing

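The members' median stayed above 0 under every alternative run. Since the members were selected on this contrast, its sign was largely set beforehand and lends no support. All 53 members entered except past the filter (44) and without _x_at and _s_at probe sets (42). The median was 0.54 with a pseudocount of 200, 0.53 with arrays centred on their medians and 0.59 with the mean of each gene's probe sets. Leaving out either siRNA array gave 0.63 to 0.73. Centring moved the median of all genes to -0.094, so that the members stood 0.63 above it both as deposited and centred. Since centring subtracts a constant from each array, that distance could not change and lends no support. Raising signals to the bacterial level, an alternative chosen after seeing the data, gave a members' median of 0.63. The count at least 2-fold higher was 7 with the mean of probe sets and 7 without _x_at and _s_at probe sets, against 11. It was 15 and 8 with pseudocounts of 1 and 200, 8 centred, 9 with quantile normalization, 11 past the filter and 12 with raised signals. Leaving out either siRNA array, which leaves 1 array to meet the threshold, gave 14 to 16. The count at least 2-fold lower was 0 with a pseudocount of 200, with the filter and with the raised signals, and 1 to 2 leaving out either siRNA array. Beside these counts, 3.92% of all genes were at least 2-fold higher and 2.36% lower at the main setting. Past the filter the shares were 4.19% and 1.94%. Shares of all genes at the other settings were not computed. The median of the other genes of the interval was 0.25 and 0.080 with pseudocounts of 1 and 200, 0.017 centred, 0.11 with quantile normalization, 0.24 past the filter, 0.0 with raised signals and 0.040 to 0.10 leaving out an array. The centromere-side median was -0.18 centred, 0.0057 with quantile normalization, 0.019 with the mean of probe sets, 0.060 without _x_at and _s_at probe sets, -0.060 past the filter and 0.0079 to 0.023 leaving out an array. The telomere-side median was 0.16 with a pseudocount of 1, -0.081 centred, 0.0 with raised signals and 0.16 to 0.24 leaving out an array. limma called 1528 probe sets centred (594 higher and 934 lower, against 324 and 247), 357 with quantile normalization, 9 with a filter at the 75th percentile, 1 with no filter and 1 without the trend. The cause of these shifts was not tested. No paired analysis was possible because the scrambled group has 1 array. The number of arrays and, for the 5 members below the bacterial level on all of them, signal over background limit what can be read.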
